A study of Mus musculus with 6 samples.

Results

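The U11/U12 di-snRNP is the particle with which the minor spliceosome first recognises its introns, and 10 of its genes were followed here across 6 whole testes. They were chosen by name out of 55353 genes in the files, from what is known of the particle and knowing earlier results of these data. They are the U11 and U12 RNA genes Rnu11 and Rnu12, and the protein genes Rnpc3, Snrnp25, Snrnp35, Snrnp48, Pdcd7, Zcrb1, Zmat5 and Zrsr2. All 10 matched by symbol, with 47 annotated isoforms out of 142647. The mutant group, Rnu11 cKO, held 3 mice with a conditional knockout of Rnu11, and the control group held 3 mice labelled control. Both groups were taken at postnatal day 14, and total RNA of the whole testis was depleted of ribosomal RNA and sequenced. The Cre line, the cells it targets and the alleles that the controls carry are not stated in these sources. A whole testis holds germ cells beside Sertoli, Leydig, peritubular, immune and endothelial cells, so a lower level in it can come from fewer cells of a type or from less RNA per cell, which cannot be told apart.

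Most introns are removed by the major spliceosome, whose U1 and U2 particles bind the 5′ splice site and the branch site one after the other. The few minor introns have a longer, more conserved 5′ splice site, which base-pairs with U11, and a branch site that base-pairs with U12, and both are bound together by the preformed di-snRNP. Besides defining introns, the U11 particle binds a conserved element made of tandem minor 5′ splice sites in transcripts of RNPC3 and SNRNP48, and is known to shift their splicing through it, which ties the level of the particle to the output of these protein genes. Without the particle, minor introns are retained or cryptic splice sites are used.

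The sequences that the results turn on are the 2 RNAs and this tandem element. U11 is encoded by Rnu11 (ENSMUSG00000077323.1, GRCm38, chr4:132270080-132270213, minus strand, a single-exon snRNA gene of 134 bases). U12 is encoded by Rnu12 (ENSMUSG00000065176.1, chr15:83149644-83149794, plus strand, 151 bases). Both are shown as DNA from the GENCODE M21 transcripts. Capitals in Rnu11 mark positions 4 to 7, the reverse complement of the CCTT in the minor 5′ splice site, and capitals in Rnu12 mark positions 18 to 25, which pair with the branch site.
Rnu11: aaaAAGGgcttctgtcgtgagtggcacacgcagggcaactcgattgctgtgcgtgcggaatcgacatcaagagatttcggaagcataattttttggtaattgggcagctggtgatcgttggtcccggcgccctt
Rnu12: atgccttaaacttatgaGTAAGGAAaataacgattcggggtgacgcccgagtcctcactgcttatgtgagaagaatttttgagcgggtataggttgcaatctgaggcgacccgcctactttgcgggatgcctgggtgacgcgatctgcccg

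The tandem element was searched as 2 copies of GTATCCTT or ATATCCTT whose starts lie 8 to 30 bases apart, on the sense strand of annotated transcripts. Among the 47 isoforms of the 10 genes, 4 hold it: Rnpc3-201, Rnpc3-202, Rnpc3-208 and Snrnp48-204. Over all GENCODE M21 transcripts it is rare, present in 19 of 141767 (0.0134%) and in 9 of 55341 gene symbols (0.0163%), 2 of which are members. The element was searched because it is known in these 2 genes, so finding them among the 9 is no sign of enrichment. The reverse complement was found in 16 transcripts. Among transcripts of 3000 to 7000 bases, a length range that includes the tandem-containing Rnpc3-201, Rnpc3-208 and Snrnp48-204, the share was 0.0367%. Introns that no annotated transcript covers could not be searched. A match is a description of the letters and not of binding. The stretches of the 2 genes are set out next, with each copy in capitals.
Rnpc3-201, 3′ UTR, exon 15, chr3:113607232-113607261, minus strand: caagtGTATCCTTtcttGTATCCTTttcgg
Snrnp48-204, exon 5, chr13:38214666-38214695, plus strand: caGTATCCTTtttgcaaatgATATCCTTtt
In Rnpc3 the copies start 12 bases apart, and the first begins 43 bases into the last exon. In Snrnp48 they start 18 bases apart. The first begins 63 bases into exon 5 of Snrnp48-204, exactly where the 63-base exon 5 of Snrnp48-203 ends, so this copy occupies the annotated 5′ splice site of that small exon.

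**Figure D1:**
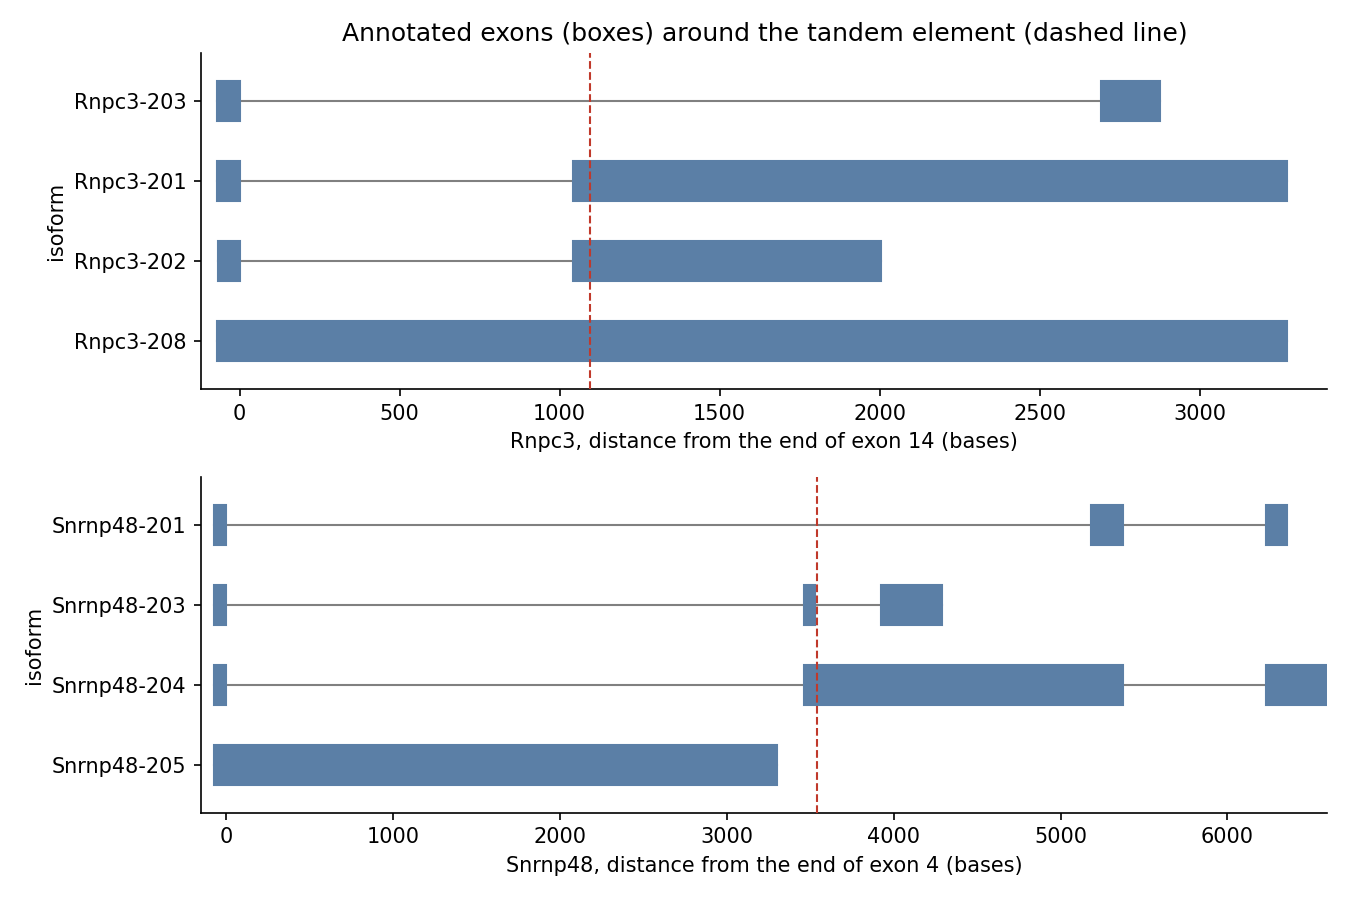
Annotated exons (boxes) and introns (lines) of Rnpc3 isoforms downstream of exon 14 and of Snrnp48 isoforms downstream of exon 4, by distance in bases along the transcript's direction, with the tandem element as a dashed line. The element lies inside the long last exons of Rnpc3-201 and Rnpc3-202 and is spliced out in Rnpc3-203, and it lies at the end of the small Snrnp48 exon that Snrnp48-201 skips.

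Rnu11 RNA, from the knocked-out gene, was less abundant in each mutant testis than in any control. It stood at 196.1, 393.2 and 203.3 TPM (transcripts of a gene per fixed number of all transcripts, a level corrected for length) in mutants 1 to 3, against 614.5, 576.3 and 550.3 TPM in controls 1 to 3. Mutant 2 had the highest level of the mutants, mutants 1 and 3 lay close together, and the groups did not overlap. The mean was 264 ± 112 TPM in mutants and 580.4 ± 32.3 TPM in controls (SD, n = 3 each). The log2 difference, mutant minus control on log2(TPM + 1), was −1.21 (SE 0.26), which did not pass the threshold of 0.05 over all 17959 genes tested (limma, adjusted p = 0.29). With mutant 2, the highest of the mutants, left out the difference was −1.53 and passed (limma, adjusted p = 0.0389). With any other single library left out it did not pass (limma, adjusted p from 0.15 to 0.61). Rnu11 RNA was measured above 0 in all 3 mutant testes.

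Rnu12, whose RNA pairs with the branch site, had 136.9, 65.1 and 96.3 TPM in mutants, against 103.0, 139.4 and 118.8 TPM in controls. The groups overlapped, and the log2 difference was −0.33 (SE 0.26; limma, adjusted p = 0.52). It was −0.59 without mutant 1 and −0.06 without mutant 2. The level of Rnu12 is uncertain, because the near-identical copy Gm24525 (96.6% identity over 149 bases) had 55.0, 13.0 and 32.1 TPM in mutants and 108.0, 61.3 and 32.1 TPM in controls, and how reads were divided between them is not stated. Their sum was 133 ± 57.0 TPM in mutants and 188 ± 32.2 TPM in controls (SD, n = 3 each).

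The ratio of Rnu11 to Rnu12 TPM within a library does not move with that library's scaling. It was 1.43, 6.04 and 2.11 in mutants, against 5.97, 4.13 and 4.63 in controls. Mutants 1 and 3 lay below all controls and mutant 2 above them, since it had both the highest Rnu11 and the lowest Rnu12 of its group. The difference of mean log2 ratios was −0.88 (exact permutation test, two-sided, p = 0.4; the smallest p that 3 against 3 allows is 0.1). Against Rn7sk, the 7SK RNA, the log2 ratio of Rnu11 differed by −1.24 (exact permutation p = 0.1). Against Rpph1, the RNase P RNA, the corresponding value was −1.30 (exact permutation p = 0.1). Against Rmrp, the RNase MRP RNA, it was −0.82 (exact permutation p = 0.4), with Rmrp itself at 28954 TPM in mutants and 37834 TPM in controls on average. Mutant 2 was the only mutant within or above the control range in the Rnu12 ratio and the Rmrp ratio.

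A long noncoding RNA, Gm28872, is annotated antisense to the whole of Rnu11. It had 23.2, 13.0 and 10.6 TPM in mutants, against 23.6, 29.3 and 27.5 TPM in controls, with every mutant below every control by a log2 difference of −0.81 (SE 0.26; limma, adjusted p = 0.29). The library kit keeps strand, but whether the counting used it is not stated, so reads of the 2 genes may not be separated. Of 4 annotated same-strand copies of U11, each with at least 80% identity over at least 80 bases, all were listed at 0 TPM in all 6 libraries.

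**Figure D2:**
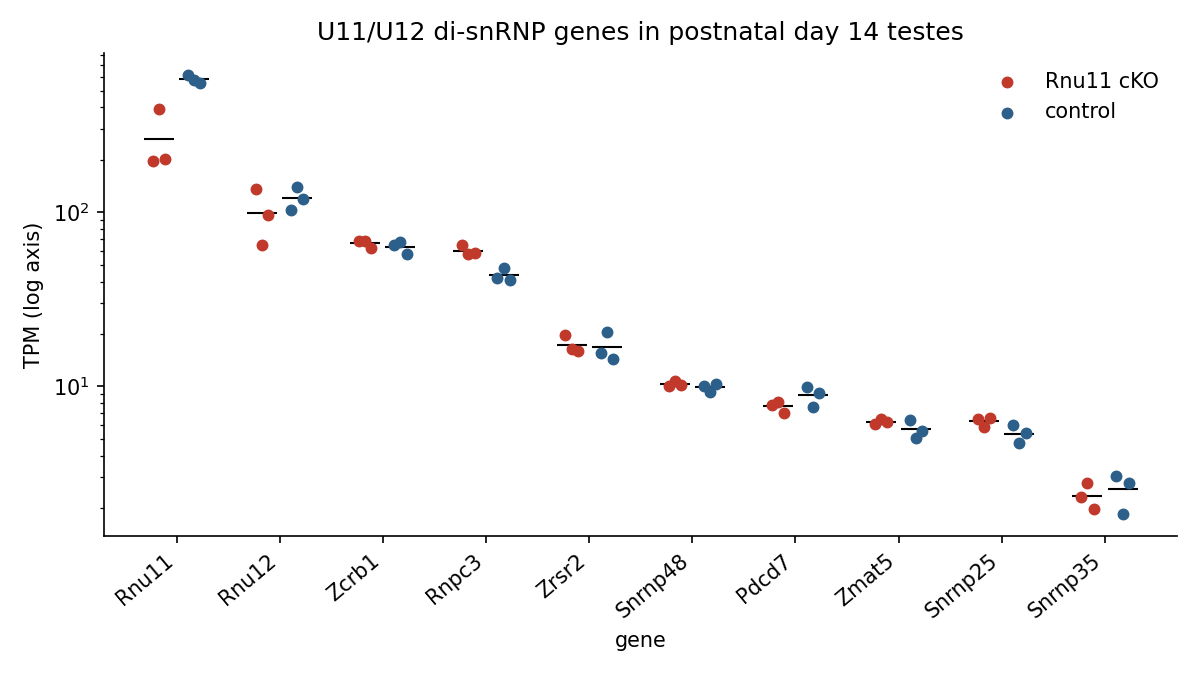
TPM (log axis) of the 10 di-snRNP genes in each library, with Rnu11 cKO points left of control points and a line at each group's mean (n = 3 each). The groups separate for Rnu11, lower in mutants, and for Rnpc3, higher in mutants, and overlap for the other 8 genes.

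Of the 8 protein genes, Rnpc3 was the one whose groups did not overlap, and the totals of the other 7 overlapped. Of the 10 genes, none was called (limma, adjusted p from 0.29 to 0.89), against 0.0278% of all genes tested. At an unadjusted p under 0.05 there was 1 higher, Rnpc3, and 1 lower, Rnu11, against 16.1% of all genes in either direction. Groups that did not overlap were found for 1 gene higher in mutants, against 14.5% of all genes, and for 1 lower, against 5.77%. The 8 protein genes had a median log2 difference of 0.07, with 6 estimates above 0 and 2 below, beside a median of 0.09 over all genes tested. Scaling by median ratios moved the median of all genes to 0.00 and scaling to the protein-coding sum moved it to −0.03, and under either scaling 3 of the 8 were above 0 and 5 below, since Snrnp48, Zcrb1 and Zrsr2 changed sign.

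Rnpc3 encodes the protein that bridges the particle by binding U12 and the U11 protein PDCD7. Its gene total was 64.6, 57.8 and 58.6 TPM in mutants, against 42.0, 47.9 and 41.0 TPM in controls. Every mutant lay above every control, and the log2 difference was 0.46 (SE 0.10; limma, adjusted p = 0.29), the 116th smallest p of 17959. Pdcd7, its partner on the U11 side, had 7.81, 8.18 and 7.08 TPM in mutants and 9.94, 7.64 and 9.11 TPM in controls, with overlapping groups (−0.18; limma, adjusted p = 0.44).

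Snrnp48 and Snrnp25 encode U11 proteins, the first of which contacts the 5′ splice site. Snrnp48 had 10.3 ± 0.41 TPM in mutants and 9.89 ± 0.59 TPM in controls (SD, n = 3 each; log2 difference 0.06; limma, adjusted p = 0.73). Snrnp25 had 6.54, 5.86 and 6.57 TPM in mutants and 5.98, 4.71 and 5.40 TPM in controls (0.21; limma, adjusted p = 0.37). The groups overlapped for both. Snrnp35, a U11 protein resembling the U1-70K protein of the major spliceosome, was the member with the lowest level, at 2.32, 2.78 and 1.96 TPM in mutants and 3.07, 1.84 and 2.80 TPM in controls (−0.08; limma, adjusted p = 0.83).

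Zcrb1 and Zmat5 encode zinc finger proteins of the particle. Zcrb1 had 68.7, 68.1 and 62.5 TPM in mutants and 64.7, 67.8 and 57.4 TPM in controls (0.07; limma, adjusted p = 0.72). Zmat5 had 6.09, 6.50 and 6.22 TPM in mutants and 6.41, 5.04 and 5.56 TPM in controls (0.13; limma, adjusted p = 0.53). Zrsr2, an X-linked gene whose protein recognises the 3′ splice site of minor introns, had 19.7, 16.3 and 15.9 TPM in mutants and 15.6, 20.7 and 14.3 TPM in controls (0.05; limma, adjusted p = 0.89). The groups overlapped in all 3 genes. Zmat5 shares 778 bases with Cabp7 on the opposite strand, which averaged 0.28 TPM in mutants and 0.23 TPM in controls.

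The order of levels was almost the same in both groups, with Rnu11 first, then Rnu12, Zcrb1, Rnpc3, Zrsr2, Snrnp48 and Pdcd7. In mutants Snrnp25, Zmat5 and Snrnp35 came last, and in controls Zmat5, Snrnp25 and Snrnp35. Neighbours with overlapping ranges in mutants were Rnu12 and Zcrb1, Zcrb1 and Rnpc3, and Snrnp25 and Zmat5. In controls they were Snrnp48 and Pdcd7, and Zmat5 and Snrnp25. Within the proteins, Zcrb1 and Rnpc3 stood well above the other 6 in both groups.

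**Figure D3:**
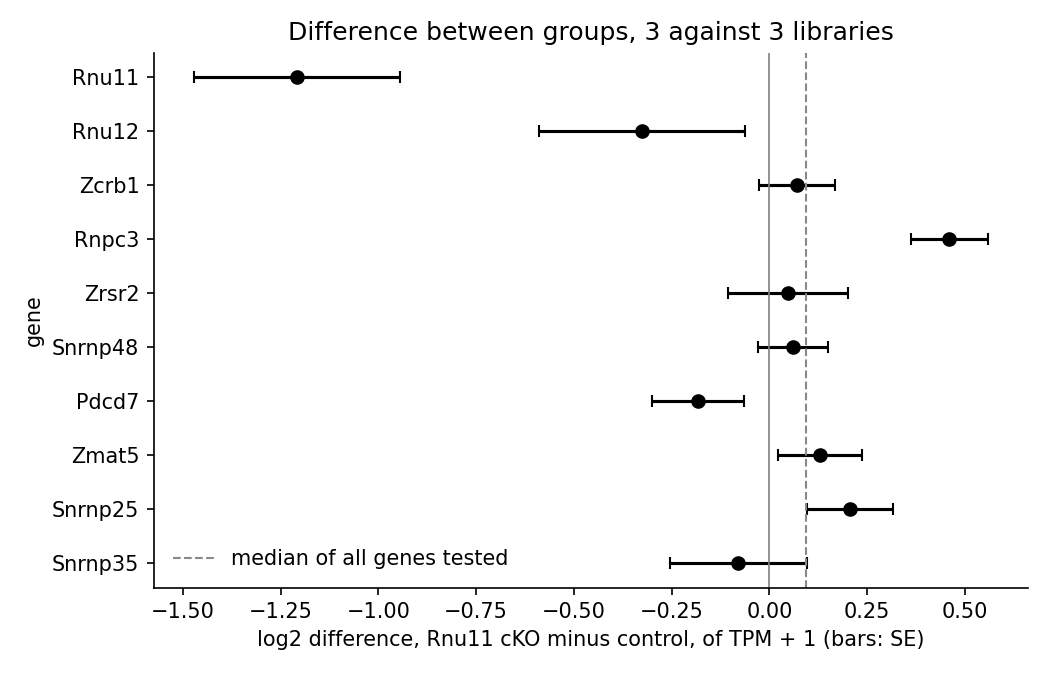
Log2 difference of each gene, Rnu11 cKO minus control on log2(TPM + 1), with the SE of the limma fit as bars, and the median of all genes tested as a dashed line. Rnu11 has the lowest value, −1.21, and Rnpc3 the highest, 0.46, around a median of 0.09.

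Rnpc3 and Snrnp48, the 2 members with the tandem element, each had an isoform that was higher in every mutant library. So did Zrsr2 and Snrnp25, which lack the element. The Snrnp25 isoform, Snrnp25-203, was under 1 TPM in every library and was not tested by level. It had 0.68, 0.42 and 0.62 TPM in mutants and 0.23, 0.29 and 0.33 TPM in controls. Rnpc3 also had an isoform that was lower. Of 47 isoforms, 33 passed the filter of 1 TPM on average and none was called (limma, smallest adjusted p = 0.096), against 0.0136% of all isoforms tested. Tested isoforms whose groups did not overlap were 3 higher in mutants, against 11.6% of all, and 2 lower, against 5.17%. The higher ones were Rnpc3-203, Snrnp48-201 and Zrsr2-207, and the lower ones Rnpc3-201 and Rnu11-201. At an unadjusted p under 0.05 there were 3 higher, Rnpc3-203, Snrnp48-201 and Rnpc3-206, and 2 lower, against 11.2% of all isoforms in either direction.

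Rnpc3 (chr3:113605067-113630149, minus strand) has 4 isoforms annotated as coding and 4 as noncoding. Rnpc3-203 and Rnpc3-201 share 14 of their 15 exons and all 1542 coding bases, and differ in the last exon alone. Both reading frames end in exon 14, so the choice lies in the 3′ UTR. Rnpc3-201 splices to a long last exon with the tandem element. Rnpc3-203 splices to a more distant acceptor, with a last exon of 184 bases without the element. These 184 bases lie wholly within the last exons of Rnpc3-201 and Rnpc3-208, and how reads in them were divided is not stated. Rnpc3-202 also uses the long exon and differs by 3 coding bases.

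Rnpc3-203, which lacks the element, had 24.5, 25.1 and 26.1 TPM in mutants, against 8.15, 10.4 and 11.2 TPM in controls. All mutants lay far above all controls, and the log2 difference was 1.28 (SE 0.13). It had the 14th smallest p of 44197 isoforms and missed the threshold (limma, adjusted p = 0.096), but passed when isoforms under 5 TPM were left out (limma, adjusted p = 0.0455). With 1 library left out at a time the difference ran from 1.15 to 1.36, with limma adjusted p-values of 0.13 to 0.30. Over all alternatives run, the limma adjusted p ran from 0.0455 to 0.34, and none but the 5 TPM filter passed.

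Rnpc3-201, with the element, was lower instead, at 2.26, 2.61 and 1.72 TPM in mutants and 6.79, 4.85 and 4.61 TPM in controls. All mutants lay below all controls, with a log2 difference of −0.999 (SE 0.18; limma, adjusted p = 0.32). Rnpc3-202 had 1.84, 2.38 and 2.04 TPM in mutants and 1.85, 4.02 and 4.10 TPM in controls, and mutant 2 and 3 overlapped control 1 (−0.44; limma, adjusted p = 0.50). Without control 1 the difference was −0.72, and without control 3 it was −0.30. Rnpc3-208, which keeps the intron before the element, had 1.90, 1.19 and 1.73 TPM in mutants and 1.62, 1.70 and 1.76 TPM in controls, with overlapping groups (−0.06; limma, adjusted p = 0.90).

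Summed, the 3 element-containing isoforms came to 5.99, 6.18 and 5.49 TPM in mutants and 10.3, 10.6 and 10.5 TPM in controls, as a description with no test. Rnpc3-203 made up 80.4%, 80.2% and 82.6% of the TPM of the 4 coding isoforms in mutants, against 44.3%, 49.6% and 51.7% in controls. The coding isoforms together stood at 31.1 ± 0.57 TPM in mutants and 20.4 ± 1.71 TPM in controls (SD, n = 3 each). The 4 noncoding isoforms came to 29.1 ± 4.24 TPM in mutants and 23.3 ± 3.80 TPM in controls, with overlapping groups. Among the 8 isoforms, the difference between group means was largest for Rnpc3-203.

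**Figure D4:**
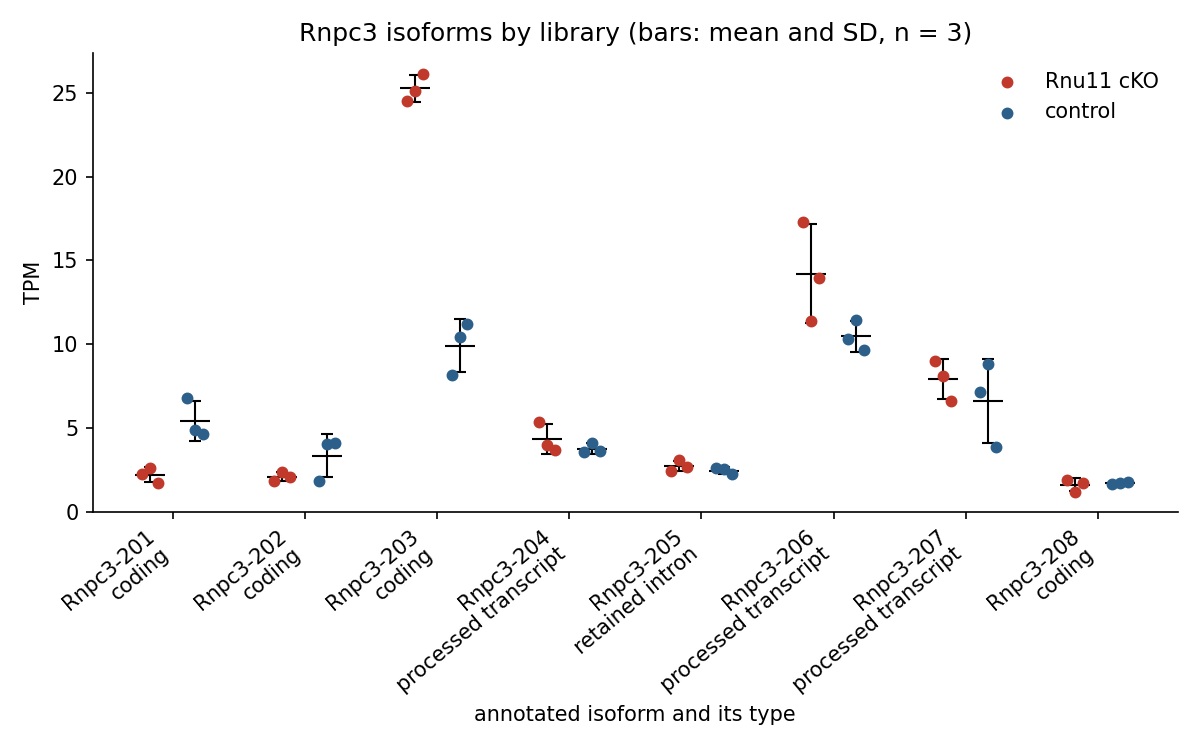
TPM of the 8 annotated Rnpc3 isoforms in each library, Rnu11 cKO left of control, with mean and SD (n = 3 each). Rnpc3-203 lies between 24.5 and 26.1 TPM in mutants and between 8.15 and 11.2 TPM in controls, while Rnpc3-201 is lower in every mutant.

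The same isoform levels were also set out as intron ratios, which do not depend on library scaling. These ratios are formed from sums of the isoform TPM above, so they restate that contrast and are no separate evidence. For the intron that leads to the long last exon, isoforms that splice it made up 13.4%, 16.0% and 11.9% of those spanning it in mutants, against 46.9%, 42.3% and 40.2% in controls. The log2 ratio of spliced to otherwise processed isoforms differed by −2.23 (SE 0.21; limma, adjusted p = 0.073), the 24th smallest p of 41285 introns. A longer intron leads to the distant acceptor of Rnpc3-203. Its shares were 85.5%, 86.8% and 88.3% in mutants and 49.2%, 61.3% and 63.7% in controls (log2 difference 2.23; limma, adjusted p = 0.20). These 2 introns share their 5′ splice site and are largely alternatives, so their values are not independent. Of 14 introns of the members that could be tested none was called, against 0.0484% of all introns. Their groups did not overlap for 4 higher and 3 lower, against 5.6% and 6.06% of all, and all 7 were in Rnpc3 or Snrnp48. They are not 7 separate events: another pair in Rnpc3, which differs by 3 bases at the acceptor before exon 14, is a mirror image (1.34 and −1.34), and in Snrnp48 the skipping intron and a later one have identical values because the same isoforms are compared.

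The intron before the element begins with GT and ends with AG, which both classes of intron can do. Its first bases, GTaagtgt, match neither GTATCCTT nor ATATCCTT, the minor 5′ splice site letters searched above. Its first and last bases are shown because its use differs between the groups, with GT and AG in capitals.
Rnpc3 intron, first 30 bases, chr3:113608310-113608339, minus strand: GTaagtgtgcataagacattaagtgataag
Rnpc3 intron, last 30 bases, chr3:113607300-113607329, minus strand: tataaattacattctgctgttcttctttAG

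The 3′ region overlaps a neighbour. The annotated Amy1 gene overlaps Rnpc3 by 1633 bases on the same strand, and an exon of its isoform Amy1-205 overlaps the last exon of Rnpc3-203. Amy1-205 stood at 0.42, 0.17 and 0.32 TPM in mutants and 0.97, 0.81 and 0.64 TPM in controls, all under 1 TPM and lower in every mutant. How reads in the overlap were divided between the genes was not tested.

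Snrnp48 (chr13:38204938-38227665, plus strand) had overlapping gene totals, while its coding isoform was higher in every mutant library. Snrnp48-201, the coding isoform with 9 exons that skips the small element exon, had 2.39, 2.80 and 2.83 TPM in mutants, against 1.25, 0.93 and 1.17 TPM in controls. The groups were well apart (log2 difference 0.80, SE 0.13; limma, adjusted p = 0.27), and it had the 81st smallest p of 44197. With 1 library left out at a time the difference lay between 0.73 and 0.86. The second coding isoform, Snrnp48-202, was listed at 0 in every library.

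Snrnp48-204, a retained-intron isoform that enters the small exon and reads on through the element, had 4.02, 4.51 and 3.81 TPM in mutants and 4.60, 4.99 and 4.43 TPM in controls (−0.15; limma, adjusted p = 0.60). Mutant 2 lay within the control range. Snrnp48-206, a processed transcript, had 1.07, 0.72 and 0.98 TPM in mutants and 2.14, 0.68 and 2.39 TPM in controls, where control 2 was below all mutants (−0.45; limma, adjusted p = 0.54). Snrnp48-205, which reads on after exon 4 and ends before the element, had 2.32, 2.55 and 2.12 TPM in mutants and 1.80, 2.26 and 2.06 TPM in controls (0.13; limma, adjusted p = 0.68). Snrnp48-203, which splices out of the small exon at the first copy, was at or under 0.505 TPM in every library and was not tested.

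Isoforms that skip the element exon made up 36.9%, 37.2% and 39.6% of those that either skip it or splice into it in mutants, against 20.7%, 14.7% and 19.6% in controls. The isoforms that splice into it were mostly the retained-intron Snrnp48-204, on average 4.11 of 4.38 TPM in mutants and 4.68 of 4.98 TPM in controls. These percentages and the intron ratios that follow come from isoform TPM and not from junction reads, so they do not measure use of the exon directly. The intron into that exon gave a log2 difference of −1.38 (SE 0.21; limma, adjusted p = 0.40), and the skipping intron gave 1.38 (SE 0.22; limma, adjusted p = 0.42). The coding share of Snrnp48's TPM was 25.8% ± 1.85 in mutants and 11.2% ± 1.20 in controls (SD, n = 3 each).

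**Figure D5:**
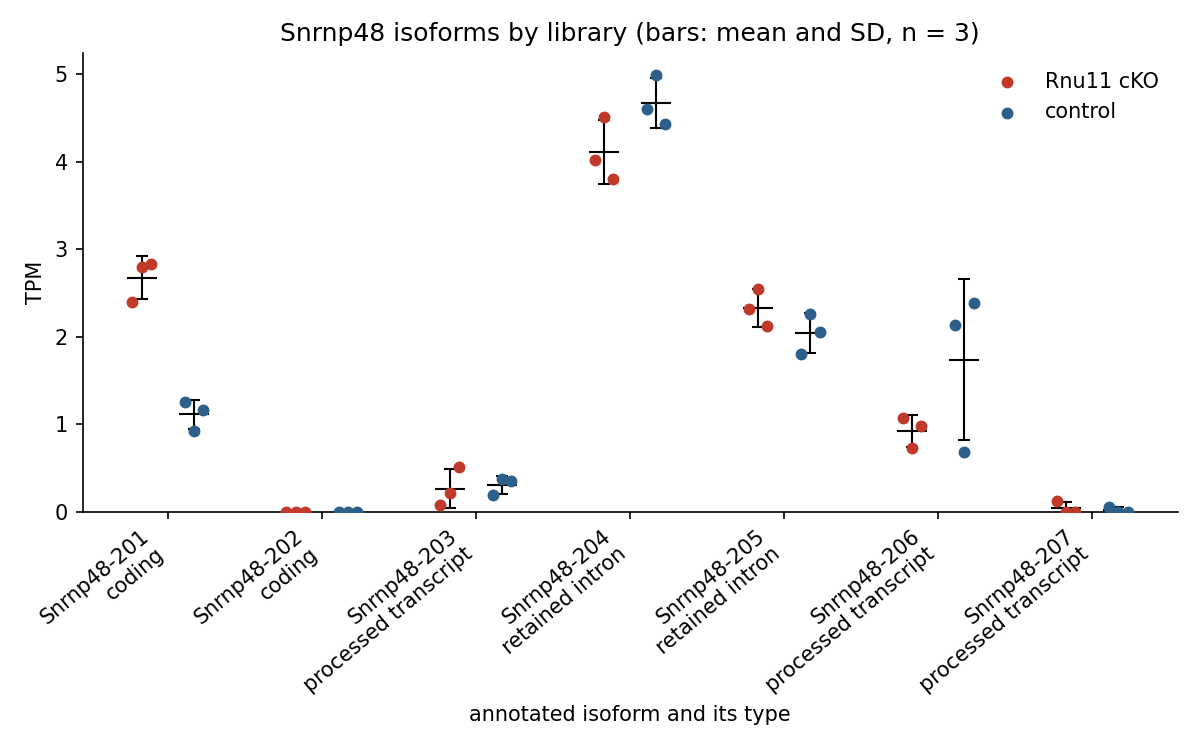
TPM of the 7 annotated Snrnp48 isoforms in each library, Rnu11 cKO left of control, with mean and SD (n = 3 each). Snrnp48-201 is at 2.39 TPM or more in mutants and at 1.25 TPM or less in controls, and Snrnp48-204, the most abundant isoform, overlaps.

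Coding isoforms were also set against those annotated as retained intron, processed transcript or subject to nonsense-mediated decay. Of the 8 protein genes, 4 could be tested and none was called, against 0.0135% of all genes so tested, and 12.5% of all had groups that did not overlap. Snrnp48 had the 3rd smallest p of 7434 genes (log2 difference 1.39, SE 0.16; limma, adjusted p = 0.13). Rnpc3 had 51.8% of its TPM in coding isoforms in mutants and 46.8% in controls (0.29; limma, adjusted p = 0.82), and Zcrb1 had 41.5% in mutants and 40.9% in controls (0.04; limma, adjusted p = 0.97). The coding share of Zrsr2 was lower in mutants, at 56.9%, 54.0% and 57.1% in mutants and 59.1%, 64.6% and 62.2% in controls, with no overlap (−0.35, SE 0.16; limma, adjusted p = 0.76).

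As a share of its gene, 27 of the 47 isoforms could be tested and none was called, against 0.0112% of all isoforms. Groups did not overlap for 3 shares higher in mutants, against 5.72% of all, and for 5 lower, against 6.07%. Rnpc3-203 made up 42.0% ± 3.54 of its gene's TPM in mutants and 22.8% ± 4.06 in controls (SD, n = 3 each; log2 difference 1.30; limma, adjusted p = 0.60). Rnpc3-201 made up 3.65% ± 0.81 in mutants and 12.5% ± 3.22 in controls (−1.87; limma, adjusted p = 0.43). Snrnp48-201 had the 17th smallest p of 35631 shares (1.39; limma, adjusted p = 0.29), which repeats the coding ratio of Snrnp48 above. The third share higher in mutants was Snrnp25-203, a retained-intron isoform, at 9.01% ± 1.67 in mutants and 5.37% ± 1.30 in controls (0.62; limma, adjusted p = 0.85). The other lower shares were Rnpc3-202, Rnpc3-204, Rnpc3-205 and Snrnp48-204. Within Rnpc3, shares of one gene must sum to the whole, so a higher Rnpc3-203 share lowers the rest.

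Most isoforms of the remaining protein genes had overlapping groups. The main coding isoform of Zcrb1, Zcrb1-201, had 25.7, 21.8 and 24.0 TPM in mutants and 21.9, 24.3 and 22.8 TPM in controls (0.05; limma, adjusted p = 0.88). That of Zrsr2, Zrsr2-201, had 6.47, 6.27 and 6.13 TPM in mutants and 5.77, 7.34 and 5.93 TPM in controls (−0.0044; limma, adjusted p = 0.99). Zrsr2-207, a retained-intron isoform, had 1.34, 1.24 and 1.36 TPM in mutants and 1.02, 1.13 and 1.03 TPM in controls, just without overlap (0.17; limma, adjusted p = 0.61). Snrnp35 was split almost evenly between Snrnp35-201 and Snrnp35-202, Pdcd7 and Zmat5 were carried by 1 coding isoform each, and the groups overlapped for these isoforms.

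In the authors' deposited table, with fold changes given as mutant over control, the confident log2 fold change was −1.29 for Rnu11 and 0.47 for Rnpc3. Per isoform, the authors' deposited table gave 1.30 for Rnpc3-203, −1.33 for Rnpc3-201 and 1.21 for Snrnp48-201. For Rnpc3-202, Rnpc3-208, Snrnp48-204 and Snrnp25-203 it gave −0.63, 0, −0.18 and 0.95. These values come from the same libraries and are no separate evidence.

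Other genes of the pathway were read from lists of known components. Of 10 other minor spliceosome genes written down, 7 were found by symbol and tested, none called, against 0.0278% of all genes tested. The 7 had 6 estimates higher and 1 lower under all 3 scalings. Their median log2 difference was 0.15 as deposited, 0.05 by median ratios and 0.02 with the protein-coding sum. Ccdc84, a minor spliceosome protein gene, had 22.1, 20.99 and 21.1 TPM in mutants and 13.4, 16.3 and 16.4 TPM in controls, with no overlap (0.46; limma, adjusted p = 0.29). Zrsr1, a near relative of Zrsr2, had 5.49 ± 0.72 TPM in mutants and 4.35 ± 0.54 TPM in controls (SD, n = 3 each; 0.28; limma, adjusted p = 0.32), and Scnm1 had a log2 difference of 0.15. Ccdc84 is the earlier symbol of Cenatac, which the list also holds, and Rnu4atac and Rnu6atac were not analysed here.

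Components shared with the major spliceosome, or their counterparts in it, included no called gene, against 0.0278% of all genes tested. The counts of higher and lower genes given here are on the deposited scale, and fewer genes were higher under median ratios, except in the SMN complex. The 7 SF3b genes, which sit in both U2 and the di-snRNP, had a median log2 difference of −0.01 (3 higher, 4 lower; 1 and 6 by median ratios), and their smallest p belonged to Sf3b5 (0.23), then Sf3b4 (−0.10) and Sf3b3 (0.08). The 11 U1, U2 and U2AF protein genes had a median of −0.03 (4 higher, 7 lower; 1 and 10 by median ratios), led by Sf3a1 (−0.12), Snrpa (0.08) and U2af2 (0.09). The 8 Sm core genes, whose proteins form the ring on both RNAs, had a median of −0.02 (4 higher, 4 lower; 2 and 6 by median ratios), led by Snrpn (0.23), Snrpd1 (−0.09) and Snrpd2 (0.10).

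No gene of the machinery that makes snRNAs was called either, against 0.0278% of all genes tested. The 9 genes of the SMN complex, which loads Sm rings onto snRNAs, had a median of −0.03 (3 higher, 6 lower), led by Gemin7 (0.16), Gemin5 (−0.14) and Ddx20 (−0.12). The 5 SNAPc genes, which start transcription of snRNA genes, had a median of 0.05 (4 higher, 1 lower; 1 and 4 by median ratios), led by Snapc5 (0.11), Snapc1 (−0.06) and Snapc3 (0.08).

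Cell type markers differed between the groups beside these results. On the deposited scale, 11925 of all 17959 genes tested had an estimate above 0. Of 10 germ cell markers, 2 were higher in mutants, 1 of them with no overlap, against 14.5% of all genes, and 8 were lower, 7 of them with no overlap, against 5.77%. Their summed level ran from 591 to 708 TPM in mutants and from 805 to 942 TPM in controls. All 9 Sertoli cell markers were higher, 5 of them with no overlap. Their sums were 1511 to 1997 TPM in mutants and 1129 to 1215 TPM in controls. All 6 Leydig cell markers were higher, 3 of them with no overlap, and all 5 macrophage markers were higher, 1 of them with no overlap. Leydig sums were 208 to 336 TPM in mutants and 110 to 209.6 TPM in controls. Macrophage sums were 29.1 to 42.0 TPM in mutants and 20.0 to 32.5 TPM in controls. Of the 5 peritubular myoid and 5 endothelial markers, 4 each were higher, with overlapping groups for every marker and overlapping sums. Both erythrocyte markers tested were higher with no overlap. Under both other scalings the counts of higher and lower markers in these lists were the same, with 1 exception. With the protein-coding sum, 1 germ cell marker was higher and 9 were lower. No marker was called by limma, against 0.0278% of all genes tested, and none was at 0 in every library. The part of these markers in the levels and isoform shares of the di-snRNP genes was not tested. Nuclear protein-coding genes took 25.4% to 31.0% of each library's TPM, and 30113 to 34510 genes were listed above 0; depth is not known from TPM.

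By Pearson correlation of log2(TPM + 1) over the 6 libraries, among protein-coding genes of at least 5 TPM, the pattern of Rnu11 was most like those of Ubr7 (0.99), Stradb (0.98), Zc3h14 (0.97), Nup43 (0.97) and Ncapd3 (0.97), out of 9327 genes. The pattern of Rnpc3 was most like those of Usp12 (0.99), Kcng2 (0.99), C030006K11Rik (0.99), Bmp4 (0.99) and Wfdc9 (0.99), out of 9326. The 6 libraries fall into 2 groups, so these values largely describe the split between them, and they are given as a description only.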

How the data were processed

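Whole-testis RNA of 3 Rnu11 cKO and 3 control mice was sequenced as stranded, rRNA-depleted total RNA, per the labels' protocols. The design text counts animals, and 1 library was read as 1 animal. The submitters' processing notes name HISAT2 and GRCm38; the quantifier and its annotation release were not given in the sources used here. Per gene and per isoform, the authors deposited TPM without counts. Depth cannot be read from TPM, counting intervals are left out, and an isoform's TPM rests on how the authors' tool divided shared reads. Series-wide tables hold, per the file headers, the authors' log2 fold changes and average TPM, used for description only.

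Genes and isoforms with a mean of at least 1 TPM were tested on log2(TPM + 1) with limma 3.58.1 in R 4.3.3 (lmFit, eBayes with trend, two-sided), adjusted by Benjamini-Hochberg over all features, threshold 0.05. This scale understates changes of low genes. Shares, coding against unproductive isoforms and intron ratios were tested as log2 ratios with 0.1 TPM added to each side, without trend, in genes of at least 5 TPM, for shares of 5% to 95%, and where both sides of a coding or intron ratio averaged at least 0.5 TPM. Exons and types came from GENCODE M21, to which 141524 of 142647 isoforms matched. Copies of the snRNAs were found with BLAST+ 2.17.0, and other steps used Python 3.11.15. Each fit was also run on simulated data with independent normal values per feature. That simulation holds neither differences of cell composition nor isoform estimation error, and nothing here rests on it. Alternatives changed the pseudocount, the filter, the library scaling and the replicate block, and left out each library in turn.

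The members, gene lists and markers were chosen with earlier results of these data known. All members are named, with the 3 smallest p-values of each pathway list, isoforms of at least 5% of their gene by value, range or group, and the 5 genes most like Rnu11 and most like the protein gene with the smallest p-value.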

Additional observations from a re-analysis of the deposited data

How the results depend on the processing

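For 31 single results (the 10 genes, and 21 isoforms, shares, coding ratios and introns, mostly of Rnpc3 and Snrnp48), 371 alternatives were run, of which 356 kept the direction and the side of the threshold, 12 changed sign and 3 newly passed. Calls among the members changed in 3 settings. With 1 library left out at a time, 0 to 1 member genes were called, the 1 being Rnu11 without mutant 2, where 7 of all 17959 genes were called. The log2 difference of Rnu11 ran from −1.53 to −1.03 (limma, adjusted p from 0.0389 to 0.61). Leaving out isoforms under 5 TPM gave 1 of 14 member isoforms called, Rnpc3-203, and 6 called of all 13644 isoforms. Adding 0.5 TPM in place of 0.1 to each side of a ratio gave 1 of 14 member introns called, and 14 called of all 41285 introns. The member intron called was the one before the long Rnpc3 exon (−2.14, limma, adjusted p = 0.0486, and up to 0.59 under the other alternatives). The sign changed for genes whose estimates lay near 0. With median-ratio scaling Snrnp48 stood at −0.038, Zcrb1 at −0.036 and Zrsr2 at −0.055, and with protein-coding scaling Snrnp48 stood at −0.068, Zcrb1 at −0.068 and Zrsr2 at −0.085. Zrsr2 stood at −0.044 without mutant 1 and at −0.055 without control 3, and leaving out 1 library at a time it ran from −0.055 to 0.20. Snrnp35 stood at 0.0055 without mutant 3 and at 0.023 without control 1, with a range from −0.24 to 0.023. Rnpc3-208 stood at 0.062 without mutant 2 (range −0.14 to 0.062), and the coding ratio of Zcrb1 at −0.0033 without control 2 (range −0.0033 to 0.092). The cause of these sign changes was not tested. The log2 ratio of Rnu11 to Rnu12 differed by −1.48 to −0.44 with 1 library left out, and by −0.63 against Rnu12 plus Gm24525, a ratio added after seeing the data. Same-numbered libraries did not deviate together (correlations −0.07, 0.03 and 0.08), so the numbers were not taken as pairs. With the replicate block 0 members were called, and 0 of all 17959 genes. Rnu11 then had the same difference of −1.21 (limma, adjusted p = 0.19). With TPM alone, depth is not known, and isoform levels carry an estimation error that the files do not give.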
